A study of Homo sapiens with 6 samples.

Results

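Genes of glycolysis and of the hypoxia response were compared between U87 cells that overexpressed miR-151a and U87 cells that overexpressed the negative control miR-NC. The set held 34 listed genes of 18132 genes measured, and 31 of the 34 were measured by at least 1 probe set whose annotation names that gene alone. Of the 34, 16 encode enzymes of glycolysis and lactate formation, and 18 encode transporters, regulators and other genes known as targets or sensors of hypoxia-inducible factor (HIF). Each gene was represented by its brightest probe set over the 6 samples, and its other probe sets served as a check. U87 is an established human glioblastoma line, and messenger RNA was measured on 1-colour Affymetrix arrays with 3 miR-151a samples and 3 miR-NC samples. The comparison asks how messenger RNA levels differ under raised miR-151a. Both groups carried an overexpressed microRNA, and the labels name no oxygen level, glucose level, drug, arm of miR-151a, vector or time. No label tells whether replicates came from separate cultures, so p-values reflect only the spread among these 6 samples, which may be technical. In bulk RNA, fewer cells with a transcript and less of it per cell cannot be told apart.

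Glycolysis splits glucose into pyruvate in the cytosol and yields ATP without oxygen, and lactate dehydrogenase turns pyruvate into lactate so that the pathway can go on. When oxygen is low, the prolyl hydroxylases of the EGLN family no longer mark HIF1A protein for degradation, and HIF1A with its partner ARNT binds hypoxia response elements and raises the genes of glucose uptake, glycolysis, acid export, mitophagy and vessel growth. HIF1A is controlled mainly as a protein, which arrays do not measure. Glioma cells are known for high glycolysis in the presence of oxygen and for HIF activity in poorly perfused parts of the tumour.

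The arrays had similar distributions, with lower quartiles of intensity from 14.9 to 15.6, medians from 57.1 to 58.6 and upper quartiles from 222 to 229.6. The precision is limited by the number of arrays, and the median within-group SD over genes was 0.075 on the log2 scale. Among glioma and glial markers, the mesenchymal filament gene VIM averaged 19170 with miR-151a and 19019 with miR-NC. In the same order, CD44 averaged 5687 and 6332 and CHI3L1 averaged 252 and 274. The astrocyte genes AQP4 (13.2 and 14.4) and S100B (19.2 and 19.0) and the glial filament gene GFAP (61.4 and 63.2) were dim. So were SOX2 (48.0 and 48.1) and OLIG2 (63.8 and 57.7). The leukocyte markers PTPRC (7.53 and 8.65) and CD14 (9.69 and 10.6) were below the lower quartile of every array, ITGAM was dim at 22.7 with miR-151a and 16.6 with miR-NC (adjusted p = 0.058), and CD68, a lysosomal gene of macrophages, was bright at 1028 and 1004. Of the 3 ITGAM probe sets, 2 rose over all probe sets. The neuronal genes SNAP25 (339 and 334) and SYT1 (91.8 and 83.0) and the endothelial gene KDR (111 and 115) were above the array medians. The other neuronal and endothelial markers and the epithelial ones averaged below these medians. The part of these markers in the results was not tested. Of 23 markers of glioma, glial, leukocyte, endothelial, epithelial and neuronal cells, NES, a filament gene of neural stem cells, was the only one that passed, at 134 with miR-151a and 166 with miR-NC (adjusted p = 0.0079). For the control probe sets, the log2 ratio of 3 prime over 5 prime signal of GAPDH ran from 0.04 to 0.05 with miR-151a and from 0.03 to 0.05 with miR-NC. That of beta-actin ran from 0.27 to 0.30 with miR-151a and from 0.37 to 0.43 with miR-NC, and that of 18S ribosomal RNA from 0.35 to 0.41 with miR-151a and from -0.54 to -0.46 with miR-NC. These ratios therefore differed between the groups for beta-actin and 18S, beside every result below, and their part in the results was not tested.

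Of the 31 measured genes, 9 fell and 0 rose in the limma comparison (Benjamini-Hochberg adjusted p below 0.05), where 8.11% of all 18132 genes fell and 7.27% rose. At an unadjusted limma p under 0.05, 13 were lower and 2 higher, where 2898 of all 18132 genes were lower and 2325, or 12.8%, were higher. Of the 16 enzyme genes, 2 fell: LDHA and ALDOC. Of the 15 other measured genes, 7 fell: SLC2A1, PFKFB4, PDK1, CA12, BNIP3L, NDRG1 and ANKRD37. The difference between these lists was not tested. The median log2 fold change was -0.06 over the enzymes and -0.14 over the other genes, and it was -0.01 over all genes. All 9 falls were small, between -0.19 and -0.40 on the log2(intensity + 1) scale. The 2 groups were separate, with miR-151a lower, for 19 of the 31 genes, where 19.4% of all genes showed this, and separate with miR-151a higher for 5, where 15.1% of all genes showed it. The count of falls changed with the representation of genes and when a sample was left out. With the mean over each gene's probe sets, 3 of the 15 other genes fell (ANKRD37, CA12 and SLC2A1) and 2 rose (HIF1A and VEGFA), while 3 enzyme genes fell (LDHA, PGAM1 and PGK1) and 1 rose (HK2); by that measure 9.34% of all genes fell and 8.40% rose, and the median of the 15 other genes was -0.05. The count of 9 falls was 4 when miR-NC replicate 2 was left out, 5 when miR-NC replicate 1 was, and 6 or 7 without each other sample. Over all genes, 1470 fell with all 6 samples and 800 to 1021 fell without 1 sample. SLC2A1, PFKFB4, NDRG1 and ANKRD37 passed in all 6 fits that left out 1 sample.

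**Figure D1:**
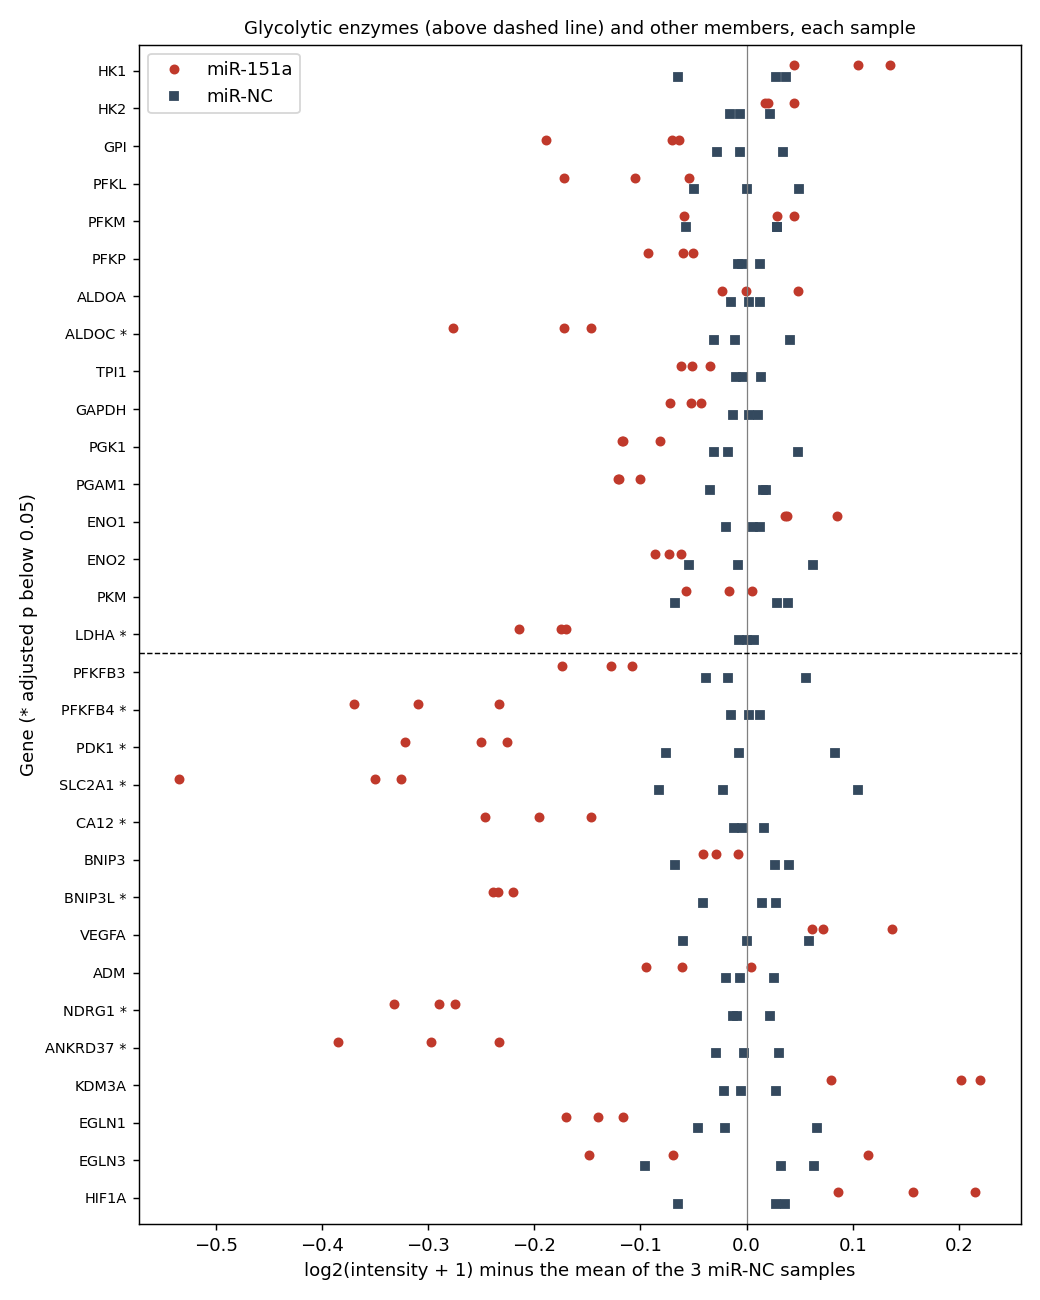
Each row is a measured gene, with the glycolytic enzymes above the dashed line and the other genes below it; the horizontal axis gives log2(intensity + 1) of a sample minus the mean of the 3 miR-NC samples. Red circles are the 3 miR-151a samples and dark squares the 3 miR-NC samples, and an asterisk marks an adjusted p below 0.05. Most enzymes lie close to 0 in both groups. The red circles lie to the left of all 3 squares for 10 of the 16 enzymes, where 19.4% of all genes showed this. Those of SLC2A1, PFKFB4, NDRG1 and ANKRD37 do so too, with larger mean changes.

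HIF binds the core letters ACGTG or GCGTG, and the proximal promoters of 5 genes are shown because these cores occurred both in genes that fell (ANKRD37, PFKFB4 and LDHA) and in genes whose brightest probe set did not pass (PGK1 and BNIP3). The RefSeq windows of GRCh38.p14 run from 250 bases before to 50 bases after a start of transcription, are written 5′ to 3′ on the gene's strand, and have each core on either strand in capitals. ANKRD37 lies at chr4:185396591-185396890 on the plus strand, PFKFB4 at chr3:48556754-48557053 on the minus strand, LDHA at chr11:18394313-18394612 on the plus strand, PGK1 at chrX:78103998-78104297 on the plus strand and BNIP3 at chr10:131981874-131982173 on the minus strand.
ANKRD37: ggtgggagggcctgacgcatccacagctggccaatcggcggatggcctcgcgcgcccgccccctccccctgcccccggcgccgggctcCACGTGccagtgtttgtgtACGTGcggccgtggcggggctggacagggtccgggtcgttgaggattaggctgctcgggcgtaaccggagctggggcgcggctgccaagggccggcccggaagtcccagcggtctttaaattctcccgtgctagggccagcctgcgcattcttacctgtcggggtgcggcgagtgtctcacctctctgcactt
PFKFB4: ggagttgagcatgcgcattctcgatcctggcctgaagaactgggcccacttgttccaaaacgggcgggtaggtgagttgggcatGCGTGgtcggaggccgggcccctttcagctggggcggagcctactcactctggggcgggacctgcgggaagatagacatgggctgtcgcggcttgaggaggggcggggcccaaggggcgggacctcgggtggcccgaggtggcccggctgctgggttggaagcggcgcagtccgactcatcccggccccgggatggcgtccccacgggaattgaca
LDHA: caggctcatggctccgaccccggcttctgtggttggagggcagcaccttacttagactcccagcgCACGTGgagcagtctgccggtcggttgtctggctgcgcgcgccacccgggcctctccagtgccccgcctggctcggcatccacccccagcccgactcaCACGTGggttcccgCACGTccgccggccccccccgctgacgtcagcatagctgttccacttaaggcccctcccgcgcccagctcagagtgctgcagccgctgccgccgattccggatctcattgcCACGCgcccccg
PGK1: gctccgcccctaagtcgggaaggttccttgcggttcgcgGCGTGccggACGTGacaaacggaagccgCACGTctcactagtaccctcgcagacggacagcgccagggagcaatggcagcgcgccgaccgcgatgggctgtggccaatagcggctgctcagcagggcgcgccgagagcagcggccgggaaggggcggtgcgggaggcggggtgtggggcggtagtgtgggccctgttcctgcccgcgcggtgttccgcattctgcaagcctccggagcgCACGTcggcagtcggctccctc
BNIP3: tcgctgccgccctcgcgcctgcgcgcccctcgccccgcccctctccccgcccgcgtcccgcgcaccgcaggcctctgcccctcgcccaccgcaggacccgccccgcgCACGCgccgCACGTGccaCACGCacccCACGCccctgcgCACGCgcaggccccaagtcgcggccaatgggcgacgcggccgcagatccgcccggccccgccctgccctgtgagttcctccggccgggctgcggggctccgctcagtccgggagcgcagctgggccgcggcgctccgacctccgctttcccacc

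The sequences hold 2 separate cores in ANKRD37, 1 in PFKFB4, 4 in LDHA, 4 in PGK1 and 5 in BNIP3. Overlapping matches were counted as 1 site, since the palindrome CACGTG, which is also the E-box read by MYC and the MLX family of glucose-sensing factors, matches on both strands. The sites of ANKRD37 start 162 and 143 bases before the start of transcription. Windows were found for 30 of the 34 listed genes, with several windows for genes of several starts; NDRG1, BNIP3L, VEGFA and SLC2A3 had none. A core was present in 39 of 58 windows, or 67.2%, and in 48.4% of all 35116 promoter windows of the table. All 7 genes that fell and have a window held a core in at least 1 window, as did 19 of the 21 measured genes that did not pass. That count grows with the number of windows of a gene, and its share over all genes was not computed. By window, a core was present in 8 of 9 (88.9%) for the genes that fell. For the genes that did not pass it was present in 27 of 43 windows (62.8%). The difference between these shares was not tested. The match is a description of letters, not of binding.

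Among the enzymes of the upper part of glycolysis, only ALDOC passed by its brightest probe set. HK1 and HK2 encode the hexokinases that trap glucose as glucose 6-phosphate. HK1 averaged 4408 ± 140 (SD, n = 3) with miR-151a and 4128 ± 158 with miR-NC, with a log2 fold change of 0.10 (95% interval -0.02 to 0.21). All 4 HK1 probe sets were above 0, from 0.10 to 0.16, and did not pass over all probe sets. The brightest HK2 probe set had a log2 fold change of 0.03 (adjusted p = 0.73), and the other one, averaging 122 ± 5.28 (SD, n = 3) with miR-151a and 96.7 ± 3.47 with miR-NC, was higher by 0.33 (adjusted p = 0.0071 over all probe sets). GPI, the isomerase of the next step, was at -0.11 (adjusted p = 0.22). The phosphofructokinase genes PFKL, PFKM and PFKP, which encode the subunits of the main control point of the pathway, were at -0.11, 0.00 and -0.07, with adjusted p from 0.21 to 0.96. Aldolase cleaves the hexose into trioses. ALDOA, its widely expressed form, was at 0.01 (adjusted p = 0.92), while ALDOC, the form typical of brain, had intensities of 266, 248 and 271 with miR-151a and 294, 298 and 309 with miR-NC. All 3 miR-151a values of ALDOC lay below the 3 miR-NC values, and its log2 fold change was -0.20 (standard error 0.05, adjusted p = 0.0397 in limma). This call of ALDOC was lost without any 1 of the 6 samples, with adjusted p from 0.059 to 0.13, and with the mean over its 5 probe sets (adjusted p = 0.083).

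Of the enzymes of the lower part, LDHA alone passed by its brightest probe set. TPI1, which interconverts the trioses, was at -0.05. GAPDH, the dehydrogenase of the pathway and a common reference gene, had intensities of 14596, 14804 and 14900 with miR-151a and 15208, 15459 and 15376 with miR-NC. Those groups did not overlap, yet the log2 fold change of GAPDH was only -0.06 and did not pass (95% interval -0.15 to 0.04, adjusted p = 0.44). Its 3 control probe sets for the 3 prime, middle and 5 prime parts differed by -0.01, -0.02 and -0.02 on the same scale. PGK1, which makes the first ATP of the payoff phase, was at -0.11 by its brightest probe set (adjusted p = 0.17). Its 9 probe sets fell into separate ranges: 6 lay between -0.16 and -0.11 and did not pass, and 3 dimmer ones lay between -0.39 and -0.38 and all fell, with adjusted p from 0.0031 to 0.0050 over all probe sets. PGAM1, the mutase of the following step, was at -0.11 by its brightest probe set (adjusted p = 0.12), and its other 3 probe sets all fell, by 0.17 to 0.18 on the log2 scale. The enolase genes ENO1 and ENO2 were at 0.05 and -0.07. PKM, a pyruvate kinase gene whose isoforms were not told apart here, was at -0.02 with its other 5 probe sets between -0.09 and 0.16.

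LDHA, the lactate dehydrogenase subunit favoured in glycolytic cells, fell by its brightest probe set. Its intensities were 13728, 13355 and 13774 with miR-151a and 15419, 15497 and 15575 with miR-NC. The groups were separate, and LDHA was lower by 12.1% (log2 fold change -0.19, standard error 0.04, 95% interval -0.28 to -0.09, adjusted p = 0.023). The other 3 probe sets of LDHA lay between -0.15 and -0.14 and did not pass over all probe sets. The LDHA call held in limma without miR-151a replicate 1 (adjusted p = 0.047) and was lost without each other sample, with adjusted p from 0.057 without miR-151a replicate 3 to 0.079 without miR-NC replicate 2. For the 14 enzyme genes that did not pass, the 95% intervals lay between -0.23 and 0.21. Those of PGK1 (-0.21 to -0.0005) and PGAM1 (-0.21 to -0.015) lay below 0. With 3 samples a group, a gene that did not pass is not shown to be unchanged.

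Among the genes of glucose entry, SLC2A1 had the largest fall of the set. It encodes GLUT1, the basal glucose transporter of most cells and a classic HIF target. SLC2A1 had intensities of 271, 314 and 308 with miR-151a and 423, 371 and 387 with miR-NC, with no overlap between the groups. It fell by 24.4% (log2 fold change -0.40, standard error 0.07, 95% interval -0.58 to -0.23, adjusted p = 0.010). Of its 4 probe sets, 3 fell, with log2 fold changes between -0.40 and -0.31; the fourth was near the floor of the arrays, at 8.52 ± 0.218 (SD, n = 3) with miR-151a and 9.44 ± 0.973 with miR-NC. SLC2A3, the high-affinity neuronal glucose transporter GLUT3, was reached only by 5 probe sets that also name SLC2A14, so its own level cannot be read. These 5 shared probe sets had log2 fold changes between -0.15 and 0.02, and 0 of them passed limma over all probe sets (adjusted p from 0.10 to 0.98). SLC16A3, which exports lactate, and CA9, a carbonic anhydrase at the cell surface, were not analysed here.

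Of the 3 regulators of flux into and out of glycolysis, PFKFB4 and PDK1 fell. PFKFB4 and PFKFB3 make and break fructose 2,6-bisphosphate, the activator of phosphofructokinase. PFKFB4 had intensities of 398, 437 and 415 with miR-151a and 515, 509 and 518 with miR-NC. Its groups were well apart, and PFKFB4 fell by 19.0% (log2 fold change -0.30, standard error 0.05, adjusted p = 0.0063). The other 3 probe sets of PFKFB4 were dimmer and lay between -0.11 and 0.04, and with the mean over its probe sets the change was -0.11 and did not pass (adjusted p = 0.088). PFKFB3 was at -0.14 by its brightest probe set (adjusted p = 0.0997), but a dimmer probe set, at 110 ± 1.18 (SD, n = 3) with miR-151a and 84.4 ± 0.978 with miR-NC, was higher by 0.38 (adjusted p = 0.0017 over all probe sets), so the direction of PFKFB3 depended on the probe set. PDK1, a kinase that inhibits pyruvate dehydrogenase, had intensities of 182, 173 and 185 with miR-151a and 229, 215 and 205 with miR-NC. The groups did not overlap, and PDK1 fell by 16.8% (log2 fold change -0.27, standard error 0.06, adjusted p = 0.018). The PDK1 call was lost without miR-151a replicate 2 (adjusted p = 0.058), miR-NC replicate 1 (0.060) or replicate 2 of miR-NC (0.056). Its other, dim probe set was at 0.04.

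CA12, a carbonic anhydrase of the cell surface that helps to clear acid, had intensities of 915, 981 and 949 with miR-151a and 1099, 1083 and 1077 with miR-NC. All miR-151a values were below all miR-NC values, and CA12 fell by 12.7% (log2 fold change -0.20, standard error 0.05, adjusted p = 0.027). Of its 5 probe sets 3 fell, and all 5 were below 0, from -0.25 to -0.12. Of the fits that left out 1 sample, only that without miR-151a replicate 2 kept the CA12 call (adjusted p = 0.037); the others gave adjusted p from 0.068 without miR-151a replicate 1 to 0.085 without miR-NC replicate 1.

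The paired mitophagy receptors differed in their calls. BNIP3, which tags mitochondria for removal in hypoxia, had a log2 fold change of -0.03 (adjusted p = 0.78). BNIP3L, its relative, had intensities of 977, 980 and 990 with miR-151a and 1165, 1175 and 1120 with miR-NC. These values did not overlap, and the brightest probe set of BNIP3L fell by 14.8% (log2 fold change -0.23, standard error 0.04, adjusted p = 0.011). The other 5 probe sets of BNIP3L lay between -0.05 and 0.05 and did not pass, and with the mean over its 6 probe sets the change was -0.03 (adjusted p = 0.65). The fall was thus a result of 1 probe set of 6. Its brightest probe set missed the threshold without miR-NC replicate 2 (adjusted p = 0.051). The difference between BNIP3 and BNIP3L was not tested.

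The secreted factors did not pass by their brightest probe sets. VEGFA, the main angiogenic factor of the HIF response, had intensities of 3219, 3392 and 3243 with miR-151a and 3214, 3086 and 2959 with miR-NC. The miR-151a values all lay above the miR-NC ones, by a narrow margin, and the log2 fold change of 0.09 did not pass (95% interval -0.03 to 0.21, adjusted p = 0.29). All 10 probe sets of VEGFA were above 0, from 0.05 to 0.24, and 3 of the dimmer ones rose over all probe sets. With the mean over its probe sets VEGFA rose by 0.15 on the log2 scale (adjusted p = 0.025). ADM, which encodes the vasodilator peptide adrenomedullin, was at -0.05 (adjusted p = 0.54).

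Among the other HIF targets, NDRG1 and ANKRD37 fell and KDM3A did not. NDRG1, a stress-responsive gene often used as a marker of hypoxia, had intensities of 639, 658 and 665 with miR-151a and 817, 798 and 800 with miR-NC. The gap between the groups was wider than either group, and NDRG1 fell by 18.7% (log2 fold change -0.30, standard error 0.04, adjusted p = 0.0037), the smallest adjusted p of the set. Its other 5 probe sets lay between -0.19 and -0.04 and did not pass, and their mean with the brightest was -0.14 (adjusted p = 0.069). ANKRD37, an ankyrin repeat gene induced by hypoxia, had intensities of 114, 121 and 127 with miR-151a and 146, 152 and 149 with miR-NC. Its groups were separate, and ANKRD37 fell by 19.1% (log2 fold change -0.31, standard error 0.05, adjusted p = 0.0080). It passed in all 13 alternatives, with adjusted p up to 0.045. KDM3A, a histone demethylase induced by HIF, ran the other way, with 335, 365 and 370 with miR-151a and 313, 316 and 323 with miR-NC. KDM3A did not pass (log2 fold change 0.17, 95% interval 0.05 to 0.29, adjusted p = 0.072), but it did without miR-151a replicate 1 (adjusted p = 0.037). Its other probe sets were at 0.08 and -0.10, and with the mean over its 3 probe sets KDM3A was at 0.05 (adjusted p = 0.61).

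The oxygen sensors and HIF1A itself did not pass by their brightest probe sets. EGLN1, the main prolyl hydroxylase that marks HIF1A for degradation, had intensities of 366, 380 and 374 with miR-151a and 431, 406 and 399 with miR-NC, and its log2 fold change of -0.14 missed the threshold (adjusted p = 0.094), with its other probe sets at -0.13 and -0.12. EGLN3, the hydroxylase most strongly induced by hypoxia, was near the floor of the arrays, at 8.60 ± 0.910 (SD, n = 3) with miR-151a and 8.82 ± 0.568 with miR-NC. HIF1A had intensities of 6569, 6309 and 6007 with miR-151a and 5771, 5805 and 5411 with miR-NC. Its groups did not overlap, with miR-151a higher, and the log2 fold change was 0.15 (95% interval 0.03 to 0.28, adjusted p = 0.10). All 8 HIF1A probe sets were above 0, from 0.15 to 0.24, and 5 of them rose over all probe sets, with adjusted p from 0.014 to 0.040. With the mean over its probe sets HIF1A rose by 0.19 on the log2 scale (adjusted p = 0.0090).

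**Figure D2:**
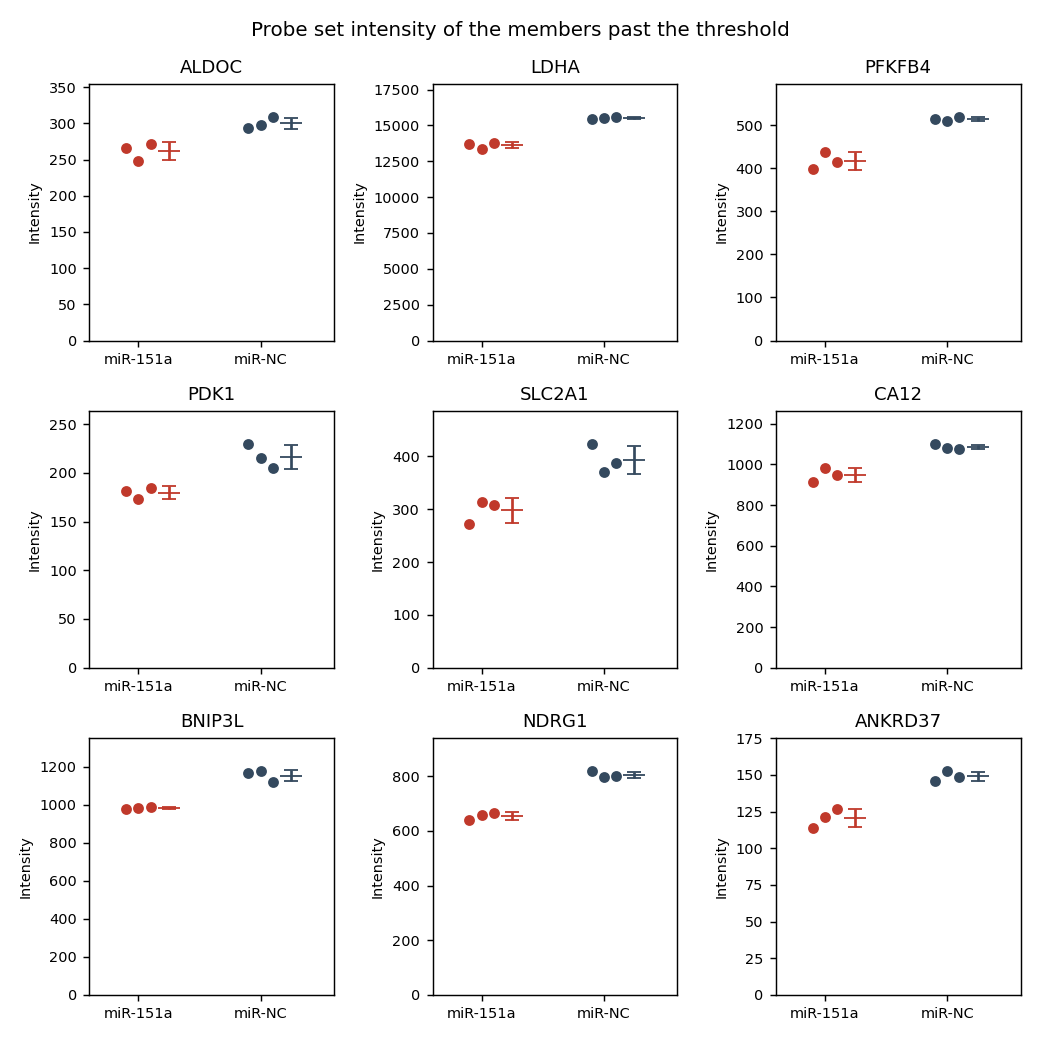
Each panel shows the linear intensity (vertical axis, from 0) of the brightest probe set of a gene that passed the threshold, with the 3 miR-151a samples on the left and the 3 miR-NC samples on the right as points, and the mean ± SD beside them. The groups do not overlap in any of the 9 panels, and SLC2A1 has the largest difference of means in proportion.

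Agreement between probe sets separated these genes further. The 31 genes had 114 probe sets that name them alone, of which 19 (16.7%) fell and 10 (8.77%) rose in a fit over all 49293 probe sets, where 7.27% fell and 6.81% rose. Among the 49 probe sets of the enzymes, 8 fell and 1 rose. Among the 65 probe sets of the other genes, 11 fell and 9 rose, and 8 of these 9 rises were probe sets of HIF1A and VEGFA. Probe sets of a gene are not independent of each other, and genes differ in how many they have. SLC2A1 and CA12 fell by 3 probe sets each, whereas PFKFB4, PDK1, BNIP3L, NDRG1, ANKRD37, LDHA and ALDOC fell by their brightest one alone. The other probe sets of LDHA (-0.15 to -0.14), ALDOC (-0.19 to -0.12) and NDRG1 (-0.19 to -0.04) were below 0 but did not pass. That of ANKRD37 was at -0.08 and near the floor, at 7.76 with miR-151a and 8.29 with miR-NC. Only PFKFB4, PDK1 and BNIP3L had probe sets above 0. The cause of these differences between probe sets was not tested.

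**Figure D3:**
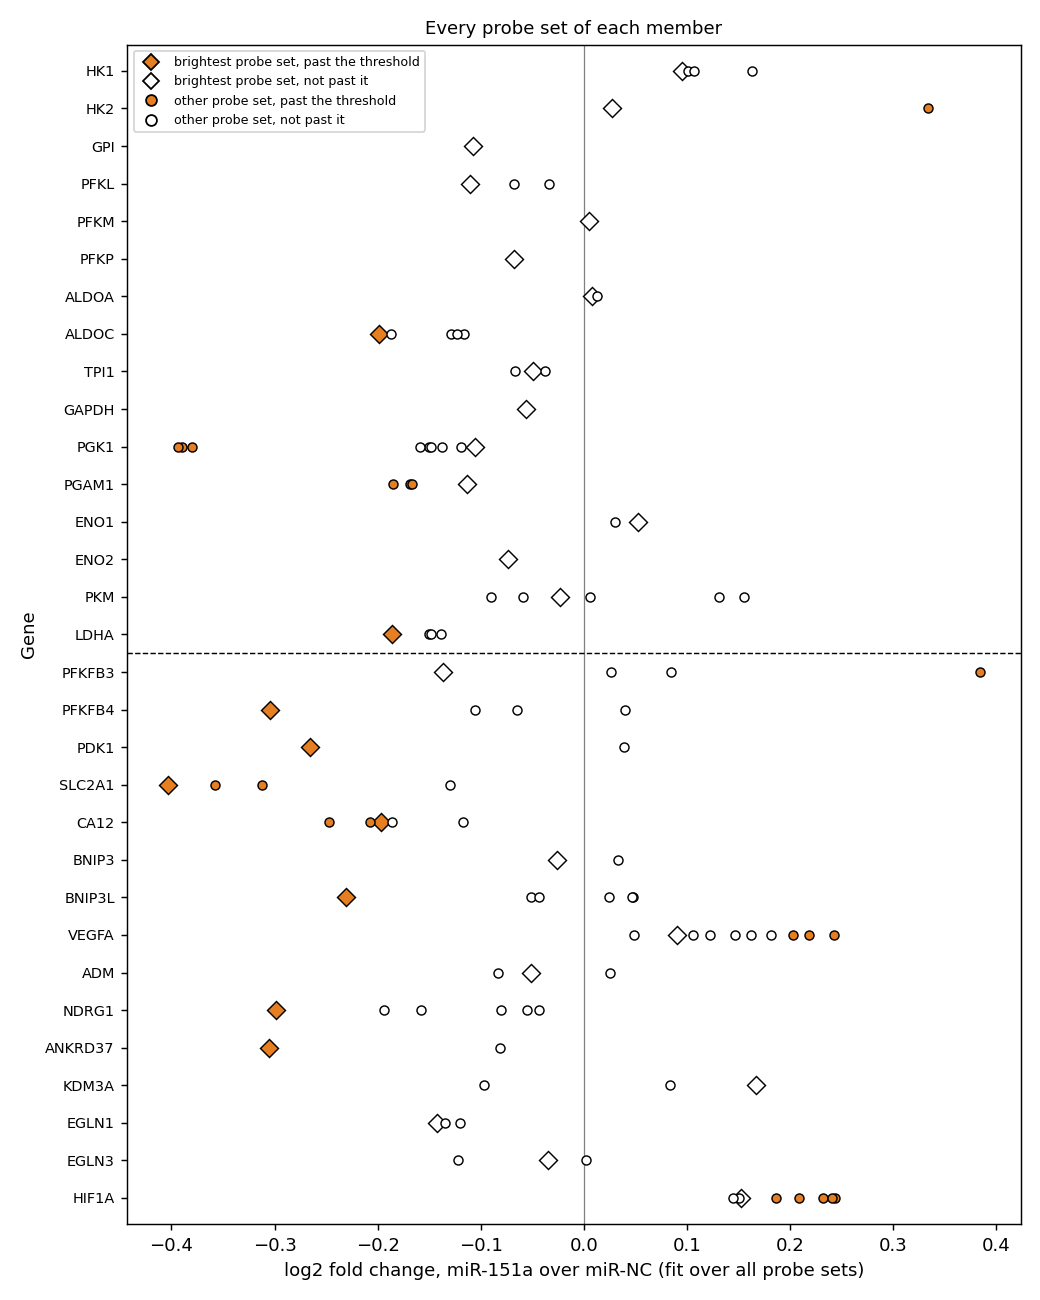
Each row is a gene and each symbol one of its probe sets, placed by its log2 fold change of miR-151a over miR-NC in the fit over all probe sets. Diamonds are the brightest probe set, circles the others, and orange marks an adjusted p below 0.05. All HIF1A symbols lie between 0.15 and 0.24 and all SLC2A1 symbols below 0, while those of BNIP3L and PFKFB3 lie on both sides of 0.

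Other genes of these pathways moved in both directions, and the larger changes were rises. The lists were chosen with earlier results of these data known, so their counts and larger changes may reflect that choice. Of 95 measured genes in 8 further lists, 12 fell and 15 rose, and the median log2 fold change was -0.02; of all genes, 8.11% fell and 7.27% rose. The 12 falls became 6 to 9 when any 1 sample was left out (7, 8 and 7 without miR-151a replicates 1, 2 and 3 and 9, 6 and 6 without miR-NC replicates 1, 2 and 3), and the 15 rises became 13 to 16. Among other sugar and monocarboxylate transporters, SLC2A6, which encodes the lysosomal transporter GLUT6, rose, to 593 ± 17.0 (SD, n = 3) with miR-151a, against 295 ± 13.8 with miR-NC (log2 fold change 1.00, adjusted p = 2.9e-05), and 1 of 7 measured genes of that list rose and 0 fell. SLC2A6 thus rose in the same samples in which SLC2A1 fell; 3 of its 4 probe sets rose and the fourth was at -0.07.

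Of 16 other glycolytic enzymes, 3 rose and 2 fell. Beside this list and the others below, 7.27% of all genes rose and 8.11% fell. No list was tested against these shares. HKDC1, a hexokinase-like gene, was at 0.37, the muscle enolase gene ENO3 at 0.34 and PGM1, which links glycogen to glycolysis, at -0.25. ADPGK, an ADP-dependent glucokinase, was at -0.21 and TIGAR, a phosphatase that lowers fructose 2,6-bisphosphate, at 0.18; TIGAR was named after its value was seen. ADPGK passed without miR-NC replicate 1 alone and TIGAR without miR-151a replicate 1 alone, with adjusted p up to 0.085 and 0.13 without the other samples. With the mean over probe sets, ADPGK was at -0.14 (adjusted p = 0.11) and TIGAR at 0.0048 (adjusted p = 0.95), and the 2 probe sets of TIGAR pointed in opposite directions, at 0.18 and -0.17. TIGAR also missed the threshold with median centring (adjusted p = 0.058). Of 9 glycogen genes 2 rose and 0 fell: PPP1R3C at 0.38 and PPP1R3B at 0.33, which both target protein phosphatase to glycogen. Of 6 genes of the pentose phosphate pathway, which branches from glucose 6-phosphate, 1 fell: RPIA, ribose 5-phosphate isomerase, at -0.34. Of 11 genes of pyruvate entry, 1 rose and 1 fell. PDP1, the phosphatase that opposes the PDK kinases, was at 0.25, and PDK3, a further such kinase, was at -0.34. PDK3 kept its call when miR-NC replicate 1 or miR-151a replicate 3 was left out, but not without each other sample (adjusted p up to 0.087).

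Of 25 further HIF targets, 5 rose and 5 fell, where 7.27% of all genes rose and 8.11% fell. HMOX1, which degrades heme and also answers to oxidative stress, averaged 3066 ± 89.0 (SD, n = 3) with miR-151a and 1045 ± 3.85 with miR-NC (log2 fold change 1.55, adjusted p = 1.7e-06). STC2, a secreted glycoprotein, was at 0.76, DDIT4, an inhibitor of mTOR, at 0.50 and the kinase gene RIOK3 at 0.30. TXNIP, which restrains glucose uptake, averaged 1559 ± 28.7 (SD, n = 3) with miR-151a and 1034 ± 21.9 with miR-NC (log2 fold change 0.59, adjusted p = 0.00019), and all 5 of its probe sets rose. The falls were those of HILPDA, a lipid droplet protein, at -0.37, TMEM45A at -0.27, LOX, a collagen crosslinking enzyme, at -0.26, P4HA1, a collagen prolyl hydroxylase, at -0.25 and FAM162A at -0.22. These 5 genes and RIOK3 were named after their values were seen. HILPDA and LOX passed without each sample in turn, TMEM45A did not without miR-NC replicates 2 and 3 (adjusted p = 0.058 and 0.072), P4HA1 passed without miR-NC replicate 3 alone and FAM162A without replicate 2 of either group. With the mean over probe sets, 6 of these 25 targets rose and 9 fell, where 8.40% of all genes rose and 9.34% fell.

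Of 15 factors and sensors of the HIF system, 2 rose and 3 fell, where 7.27% of all genes rose and 8.11% fell. Whether this list or the glucose sensing list differs from these shares was not tested. BMAL1, a clock factor related to ARNT, was at 0.39 and RBX1, a subunit of the ubiquitin ligase that VHL joins, at -0.30. VHL, which recognises hydroxylated HIF1A, was at -0.17 (adjusted p = 0.035), ARNT2 at -0.23 (adjusted p = 0.036) and HIF1AN, the asparagine hydroxylase that blunts HIF, at 0.18 (adjusted p = 0.037); HIF1AN was named after its value was seen. VHL lost its call without any 1 of the 6 samples, ARNT2 kept it without miR-NC replicate 1 or without miR-151a replicate 2, HIF1AN kept it without miR-151a replicate 1 only, with adjusted p up to 0.12 for each. HIF1AN was at -0.02 with the mean over its 3 probe sets, of which 1 rose and 1 fell. Among 6 genes of glucose sensing, ARRDC4, a relative of TXNIP that is induced by the same MLX-containing factors, rose by 0.60 on the log2 scale (adjusted p = 0.00067), and the other 5 did not pass. MLX, MLXIP and MLXIPL, which encode those factors, were at 0.05, -0.07 and 0.13.

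**Figure D4:**
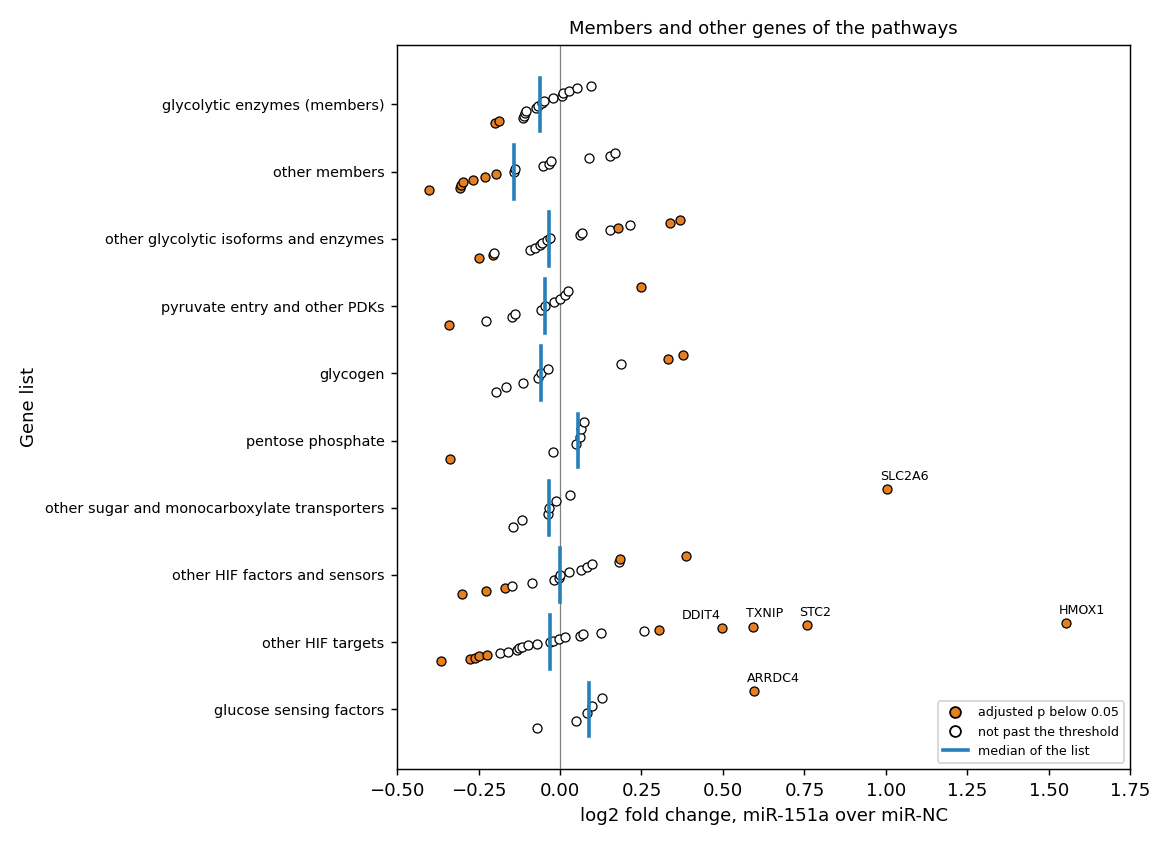
Each symbol is a gene placed by its log2 fold change of miR-151a over miR-NC, in rows for the enzymes, the other members and the 8 further lists; orange marks an adjusted p below 0.05 and the blue line the median of the list. The medians lie between -0.14 and 0.09, and SLC2A6, HMOX1, STC2, TXNIP, ARRDC4 and DDIT4 stand to the right of all other symbols.

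The calls were compared across the processing by refitting all genes under 13 alternatives. ANKRD37 passed in 13 of 13, and SLC2A1, PFKFB4 and NDRG1 in 12 of 13. BNIP3L passed in 11, PDK1 in 8, LDHA and CA12 in 7 and ALDOC in 5. Genes that did not pass as reported passed in at most 5 alternatives, which was the count for KDM3A, with 3 each for HIF1A, PGK1 and PGAM1.

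**Figure D5:**
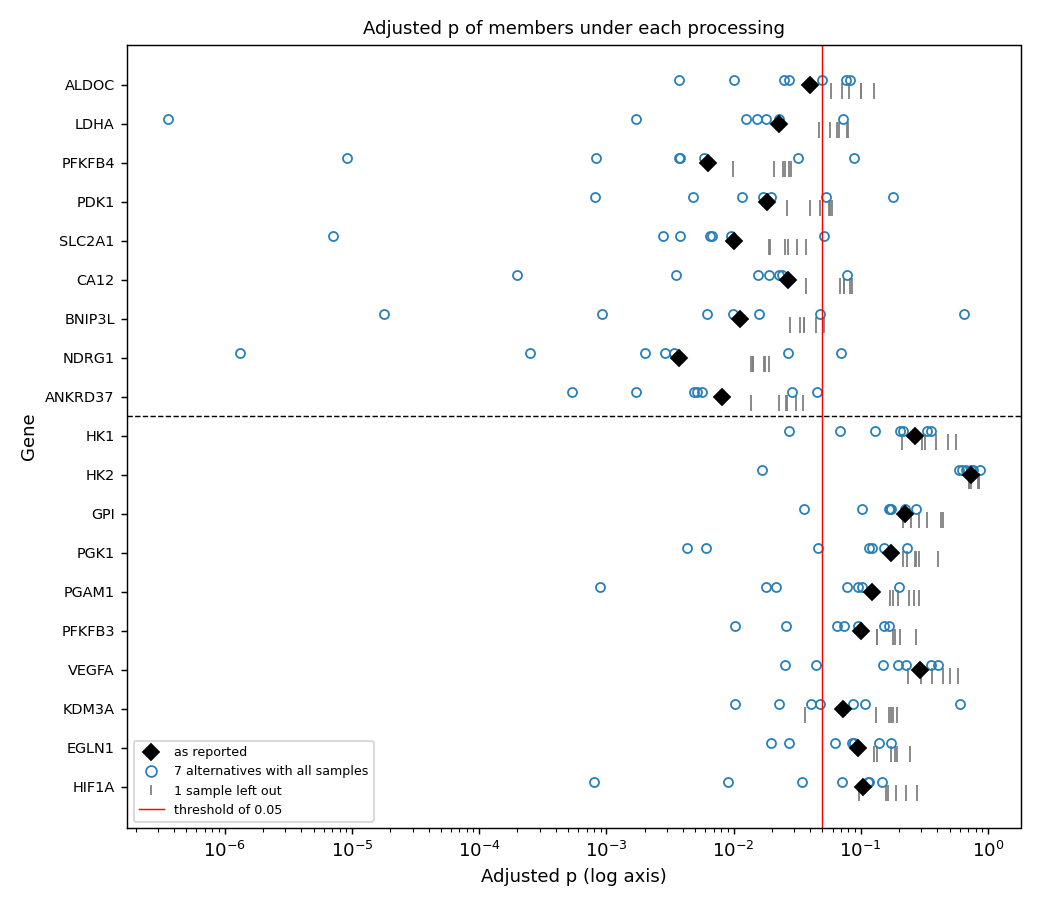
The horizontal axis gives the adjusted p on a log scale for each gene that passed the threshold in at least 1 setting, with the 9 genes that passed as reported above the dashed line. Black diamonds are the values as reported, blue rings 7 alternatives with all samples, grey ticks the 6 fits without 1 sample, and the red line 0.05. All symbols of ANKRD37 lie left of the red line, and those of ALDOC and CA12 lie on both sides.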

How the data were processed

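The authors deposited a linear intensity for each probe set and sample; per the labels' protocols, RNA was extracted with Trizol, labelled with biotin and handled by an Affymetrix whole-transcript protocol. The submitters' processing notes list MAS5 without saying what it did or its version; how they were background-corrected, summarized and scaled is unstated in these sources. Whether the authors scaled the arrays to each other was not tested; if they did, a change common to most transcripts could go unseen.

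Comparisons excluded the 102 control probe sets. Gene names came from the platform annotation, updated through Entrez identifiers to RefSeq (GRCh38.p14): of 49293, 44988 named 1 gene, 1832 several and 2473 none, and 44961 of the first matched. Values were taken as log2(intensity + 1), which understates changes of dim genes, and the groups were fitted without covariates by lmFit and eBayes of limma 3.58.1 (R 4.3.3) over all 18132 genes, with Benjamini-Hochberg adjustment and a threshold of 0.05. The same fit over all probe sets served as a check. Intervals are 95% intervals of the fit. An exact permutation test of 3 against 3 samples cannot go below p = 0.1, so none was used. The fit was also run on simulated data with independent noise for each gene, which cannot show whether the calls in these arrays are sound. Groups and replicate numbers came from the sample titles. The alternatives tried were median centring, quantile normalization, dropping probe sets under the 0.25 quantile, a larger pseudocount (32), a variance trend with a robust fit, the replicate number as a block, the mean over probe sets, and leaving out each sample. The members and lists were chosen with earlier results of these data known. Named were all members, and of each further list up to 4 genes past the threshold by smallest p; values by sample were given for members past the threshold whose log2 fold change was 0.2 or more in size and for HIF1A, GAPDH, VEGFA, SLC2A1 and LDHA, and, after their values were seen, for ALDOC, CA12, KDM3A and EGLN1. Figures were drawn with matplotlib 3.10.9.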

Additional observations from a re-analysis of the deposited data

How the results depend on the processing

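With 2788 genes past the threshold as reported, the counts were 4231 with a variance trend and robust fit, 1727 with the replicate block and 1709 to 2017 without 1 sample. Of the members, 9 were lower as reported, 14 with the variance trend, 4 with the replicate block and 4 to 7 without 1 sample; 0 were higher as reported, 1 with quantile normalization or with dim probe sets left out, 2 with a pseudocount of 32, 4 with the variance trend, 3 with the mean over probe sets and 0 to 1 without 1 sample (limma; 2 at an unadjusted p under 0.05). Of the enzymes, 2 were lower as reported, 4 with the pseudocount of 32, 5 with the variance trend, 0 with the replicate block (limma; 4 at an unadjusted p under 0.05 without the block) and 0 to 1 without 1 sample. Of the other members, 7 were lower as reported, 4 with the replicate block, 3 with the mean over probe sets and 4 to 6 without 1 sample, and 0 were higher as reported, 1 with quantile normalization or dim probe sets left out, 2 with the pseudocount of 32, 3 with the variance trend, 2 with the mean over probe sets and 0 to 1 without 1 sample.

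Signs turned only for genes that did not pass as reported, apart from HIF1AN: with median centring PFKM was at -0.0080 and ALDOA at -0.0044; with the mean over probe sets PKM was at 0.020, PFKFB3 at 0.089, BNIP3 at 0.0035 and HIF1AN at -0.015; and without 1 sample PFKM ran from -0.024 to 0.037, ALDOA from -0.012 to 0.024 and EGLN3 from -0.11 to 0.022. The cause was not tested, except that fits without a sample have fewer samples. Deviations from the group means over genes had r = -0.11, -0.15 and 0.066 between same-numbered samples of the 2 groups. The highest r with a differently numbered miR-NC sample was 0.16, 0.16 and -0.011. With so few samples these values cannot exclude pairing. The numbers were not taken to pair the samples in the main fit, and the replicate block was an alternative. Signal over background could not be judged, and members near the floor, such as EGLN3, are the least certain.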
